A study of Mus musculus with 2 samples.

Results

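The genes described here carry the symbols of axoneme gene families, most of which encode parts of the axoneme, the microtubule core of motile cilia and of the sperm tail. They are the protein-coding genes of GENCODE M21 whose symbols begin with Cfap, Dnah, Dnai or Dnaic, Rsph, Tekt, Spag or Drc followed by a digit, 76 of 21911 protein-coding genes in all. They were chosen by name alone, not by a measured value. They are called axoneme genes below for short, although 5 of them, Spag5, Spag7, Spag9, Spag11a and Spag11b, are not known as parts of the axoneme. The assay was DNase-seq, which reads out where the enzyme DNase I can reach the DNA of opened nuclei, and the tissue was whole testis of male B6CASTF1/J mice (first-generation hybrids of C57BL/6 and a castaneus-derived strain) aged 14 days. The labels give 1 group of 2 libraries, without a treatment, a genotype comparison or another age. The label of replicate 1 names 3 males, that of replicate 2 states no animal number, and the donor label is the same for both. The spread between them may therefore be partly technical. With 1 group of 2 libraries no test between conditions was possible, and no p-value is given.

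In an axoneme, outer doublet microtubules surround a central pair. Dynein arms, motors made of heavy chains (Dnah genes) and intermediate chains (Dnaic genes), walk along the neighbouring doublet. Radial spokes (Rsph) carry signals from the central pair to the dyneins, the nexin-dynein regulatory complex (Drc) links the doublets, and tektins (Tekt) and several Cfap proteins line the doublets from inside. The same machinery drives motile cilia of the airway, brain ventricles and embryonic node, and some parts exist in a form used by sperm. In the testis the flagellum is built in spermatids, after meiosis, and many of its genes are first transcribed in meiotic spermatocytes. RFX transcription factors, which bind a DNA element called the X-box, and FOXJ1 are known regulators of motile cilium genes.

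The promoter of a gene was taken as the 1000 bp before and after each of its annotated transcription starts. Its value is that of the strongest deposited peak touching this stretch, in the authors' own units, which are scaled per library, and 0 without a peak. Genes with such a peak in each library are called open. A gene without one may still be accessible below the authors' limit, a false discovery rate (FDR) of 0.05. In this whole tissue, fewer cells with an accessible promoter and less access per cell cannot be told apart.

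The X-box is shown first because its share in these promoters differs from that over all genes. Its shares in related gene lists are given at the end. It was searched as GTTNC, 4 free bases, then GNAAC, a pattern that reads alike on both strands. Of the 67 open axoneme genes, 7 held a match inside the highest promoter peak of both libraries (10.4%), against 162 of 15057 open protein-coding genes (1.08%). The sites are printed 5′ to 3′ on the strand of the gene, with the 14 matching bases in capitals and 8 bases on each side, from RefSeq GRCm38.p6, the same build as mm10. In order of falling promoter value they are:
Cfap298, a dynein assembly factor, match at chr16:90935024-90935037, minus strand: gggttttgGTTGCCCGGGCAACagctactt
Cfap61, of a calmodulin and spoke complex, chr2:145934776-145934789, plus strand: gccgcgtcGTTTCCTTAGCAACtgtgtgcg
Cfap57, which anchors inner dynein arms, chr4:118620775-118620788, minus strand: gttttctcGTTGCTATAGGAACtgctctag
Cfap97d1, needed for the sperm flagellum, chr11:101984220-101984233, plus strand: gtcatcccGTTGCCATGGCAACgaaggcag
Spag16, of the central pair, chr1:69826867-69826880, plus strand: ggcaacgcGTTGCCGTAGTAACtgcggacg
Cfap45, a protein inside the doublets, chr1:172521111-172521124, plus strand: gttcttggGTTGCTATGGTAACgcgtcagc
Cfap44, of the tether of inner dynein heads, chr16:44394772-44394785, plus strand: ggagggacGTTGCTATGGCAACcgcagtaa

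The matches of Cfap298 and Cfap97d1 are perfect palindromes. In both libraries the peaks of Cfap57, Cfap61 and Cfap97d1 also lay in the promoter window of another gene (Ebna1bp2, Crnkl1 and Dusp3). A match in such a peak cannot be assigned to 1 gene of the pair. All 7 matches lay within 100 bp of an annotated start, from 96 bp before it at Spag16 (offset -96) to 83 bp after it at Cfap298. A deposited footprint, a short stretch protected from cutting inside open chromatin, touched each of the 7 matches in replicate 1 and again in replicate 2. Over all open genes a footprint touched 79.9% of 179 matches in the highest promoter peaks of replicate 1 and 78.8% of 189 in replicate 2, while footprints covered 26.9% and 29.4% of the bases of those peaks. For the axoneme genes that cover was 25.1% and 26.9%. These measures are unlike, since a match counts as touched when any of its bases is covered, while cover counts single bases. How often other stretches of the same length in these peaks are touched was not computed. A match is a description of the reference sequence and a footprint does not name the protein bound. The alleles of these hybrids were not read and may differ from the reference at a site. In a fixed stretch from 250 bases before to 50 after the 5′ end of the gene, 5 of the 76 axoneme genes held a match (6.58%), against 0.945% of all protein-coding genes. This stretch was the planned main measure, and the count inside the highest peaks was an alternative to it. The matches of Cfap298 and Cfap45 lay outside that stretch.

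For 3 of these genes the whole 250 bases before the 5′ end lie outside any annotated exon, and they show the match in its surroundings. They are printed 5′ to 3′ on the strand of the gene, with the X-box match in capitals.
Cfap97d1, chr11:101984029-101984278, plus strand: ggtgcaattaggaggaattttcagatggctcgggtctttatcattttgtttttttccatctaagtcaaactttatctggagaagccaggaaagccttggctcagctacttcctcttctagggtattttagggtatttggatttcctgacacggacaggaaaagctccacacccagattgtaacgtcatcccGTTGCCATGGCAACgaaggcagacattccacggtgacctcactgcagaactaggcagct
Spag16, chr1:69826720-69826969, plus strand: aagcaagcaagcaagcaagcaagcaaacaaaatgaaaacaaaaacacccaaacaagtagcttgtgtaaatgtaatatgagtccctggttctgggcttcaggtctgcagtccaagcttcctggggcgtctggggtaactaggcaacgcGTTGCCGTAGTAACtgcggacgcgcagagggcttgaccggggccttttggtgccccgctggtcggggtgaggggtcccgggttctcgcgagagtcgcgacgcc
Cfap44, chr16:44394546-44394795, plus strand: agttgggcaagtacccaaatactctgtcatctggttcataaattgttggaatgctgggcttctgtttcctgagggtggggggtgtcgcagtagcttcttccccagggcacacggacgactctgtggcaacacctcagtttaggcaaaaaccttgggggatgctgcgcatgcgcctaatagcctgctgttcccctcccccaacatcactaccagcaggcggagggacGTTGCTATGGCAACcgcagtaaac

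Another 3 short motifs were searched on both strands in the same peaks. The MYB motif GGCAGTT stood in the highest promoter peak of both libraries at 5 of the 67 open genes (7.46%; 2.33% of all open genes), namely Cfap161, Dnaic2, Rsph3a, Rsph3b and Spag9. Of these 5 genes, Rsph3a and Rsph3b are near copies, and Spag9 is not known as a part of the axoneme. MYBL1 (A-MYB), which can bind such MYB motifs, is known as a regulator of meiotic spermatocytes. The forkhead motif GTAAACA was found in this way at Cfap20 and Cfap43 (2.99%; 1.26% of all open genes). The cyclic AMP response element TGACG followed by TCA was found at Dnah6 and Spag6l (2.99%; 3.33% of all open genes). In the fixed stretch around the 5′ end the MYB motif stood at 5 of the 76 genes (6.58%; 4.08% of all protein-coding genes). The forkhead motif stood there at 4 genes (5.26%; 3.05%) and the response element at 2 (2.63%; 2.43%).

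Of the 76 axoneme genes, 67 were open in both libraries (88.2%), Drc7 had a peak in replicate 2 alone, and 8 had none. Over all 21911 protein-coding genes 68.7% were open. In the shorter, stricter peak lists 66 were open (86.8%), against 63.4% of all genes, and Cfap97d2 was the gene that dropped out. The open promoters were mostly weak. The median of the mean value of both libraries was 1.76 over the open axoneme genes (quartiles 1.01 and 4.32), whereas that over all open genes was 3.85 (quartiles 1.22 and 8.22). A mean value below 2 was found at 36 of the 67 open genes (53.7%) and at 34.8% of all open genes. Counting genes without a peak as 0, the median over the 76 was 1.44 and 1.28 in replicates 1 and 2 (their mean was 1.36 ± 0.11, SD, n = 2), and that over all genes 1.36 ± 0.089.

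**Figure D1:**
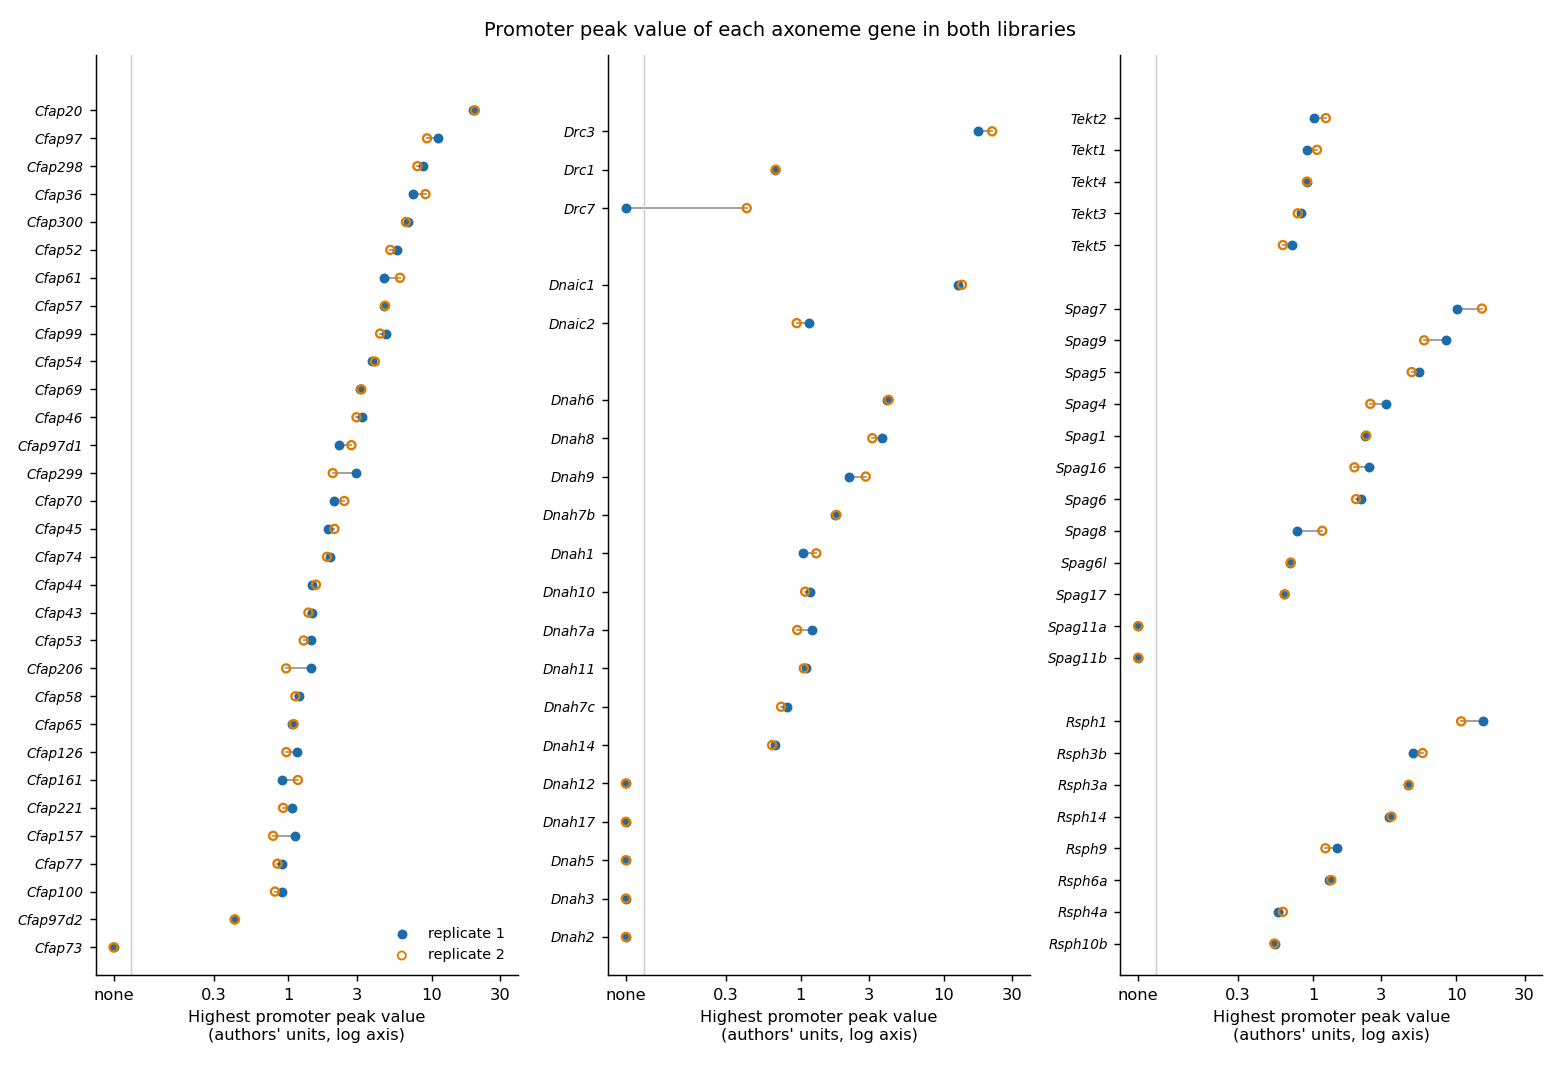
Highest promoter peak value (authors' units, log axis) of each of the 76 axoneme genes, grouped by the start of the symbol, with replicate 1 filled and replicate 2 as a ring. Genes left of the grey line had no promoter peak; of the 67 open genes 36 lie below 2, and Cfap20 and Drc3 are the highest.

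Values of these genes differed little between the libraries. After centring the log2 ratio of replicate 2 over replicate 1 on all open genes (median -0.07 before centring), the 67 genes lay between -0.50 (Cfap206) and 0.66 (Spag8), with a median absolute value of 0.13. None exceeded 1 in absolute value, and 21 of the 15057 open genes did. In 65 of the 67 genes the highest peaks of the libraries overlapped. The exceptions were Rsph10b and Spag1, whose values come from different peaks in the libraries.

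**Figure D2:**
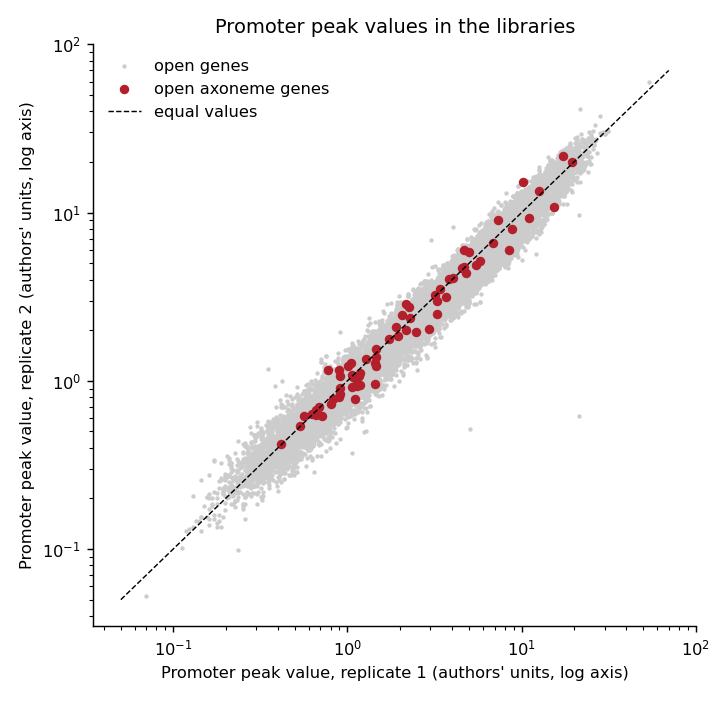
Promoter peak value in replicate 1 against replicate 2 (authors' units, both axes log) for all genes open in both libraries (grey) and the 67 open axoneme genes (red). The red points follow the dashed line of equal values over their whole range.

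Markers of testis cell types were read in the same way. Beside their counts stands the open share of all protein-coding genes, 68.7%, or 63.4% in the shorter lists. The marker lists differ in length, so their summed values are not directly comparable. All 12 meiotic prophase genes listed were open, with values that sum to 81.9 and 79.0 in the libraries, and 9 of 10 Sertoli cell genes, with sums of 18.7 and 20.7. Leydig cell genes were open at 6 of 7 (sums 6.09 and 6.75). Of 11 spermatid genes 2 were open (sums 2.34 and 2.28), and 8, among them Prm1, Prm2 and Acrv1, had no peak in either library. Markers of multiciliated duct epithelium, another possible source of open axoneme promoters, were open at 7 of 8 genes with sums of 22.7 and 20.2. That list shares genes with the further axoneme genes described at the end. The highest were Foxj1 at 7.21 and 5.82 and Ccno, a regulator of centriole number in ciliated cells, at 6.90 and 6.15. Tppp3 had 3.89 and 3.46, Dynlrb2 2.85 and 3.14 and Mcidas 1.10 and 0.947. The lowest open ones were Cdhr3 at 0.414 and 0.381 and Gmnc at 0.290 and 0.302, and in the shorter lists 5 of the 8 were open (62.5%). Sntn, a protein of the ciliary tip, had no peak. Of 8 epididymis genes 2 were open (sums 0.586 and 1.05). In the shorter lists 12 of 12 meiotic prophase, 7 of 10 Sertoli cell and 4 of 7 Leydig cell genes were open. The counts there were 2 of 11 for spermatid genes and 0 of 8 for epididymis genes. The part of ciliated cells in the promoter values was not tested.

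Of 15 dynein heavy chain (Dnah) genes 10 were open in both libraries (66.7%), close to the 68.7% of all protein-coding genes, and Dnah2, Dnah3, Dnah5, Dnah12 and Dnah17 had no promoter peak in either. The 5 closed genes also had no stretch below the FDR limit in their promoter windows. Their median promoter CpG content (observed over expected CpG in 1000 bp around the 5′ end) was 0.242, against 0.469 for the 10 open Dnah genes. The median value over all 15 was 1.04 and 0.944.

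Outer arm dyneins carry most of the beating force. Their heavy chains differ between tissues: Dnah5, Dnah9 and Dnah11 serve airway cilia, and Dnah8 and Dnah17 are the forms of the sperm tail. Dnah8 was open at 3.67 and 3.16 (3.41 ± 0.36, SD, n = 2). Its peak, at chr17:30635381-30635600 in replicate 2, lay at an internal annotated start, and the window around the 5′ end alone held no peak. Dnah17 (chromosome 11, 118021723 to 118130634) had none, although 12 peaks lay inside the gene in each library, the strongest with 1.39 in replicate 1 and, at another place, 0.932 in replicate 2. Among the airway forms, Dnah9 had 2.17 and 2.84 and Dnah11 1.08 and 1.05, and Dnah5 had no promoter peak, with the nearest peak 13848 bp from its start in replicate 1. So each of the airway and sperm sets held open and closed genes. The intermediate chains were both open. Dnaic1 had 12.6 and 13.4, in a peak shared with the promoter window of Fam219a, and Dnaic2 had 1.13 and 0.936 in a peak of its own.

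Inner arm heavy chains set the shape of the beat, and 7 of their 10 genes were open (70%), near the 68.7% of all protein-coding genes. Dnah6 was the highest, at 4.03 and 4.11. Dnah7b followed at 1.74 and 1.77, and its near copies Dnah7a (1.19 and 0.944) and Dnah7c (0.801 and 0.729) were lower. How reads from such copies were placed was not stated, so their order is uncertain. Dnah1, a heavy chain needed for the sperm flagellum, had 1.04 and 1.28. Dnah10 had 1.17 and 1.07, and Dnah14, the lowest open one, 0.661 and 0.630. The Dnah10 peak had its midpoint at -742 bp from the nearest start in replicate 1, and in windows of 500 bp its values were 0.570 and 0.589. Dnah2, without a promoter peak, had 8 peaks inside the gene in replicate 1 and 19 in replicate 2, the strongest with 3.03 and 2.90 at chr11:69546501-69546700 in replicate 1.

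All 8 radial spoke genes were open (68.7% of all protein-coding genes), and they spread from weak to strong. Rsph1, a spoke head protein of cilia and sperm on chromosome 17, had 15.3 and 10.8 (13.1 ± 3.2, SD, n = 2). The spoke stalk genes Rsph3a and Rsph3b, near copies, had 4.57 and 4.65, and 4.99 and 5.82. Rsph14 reached 3.41 and 3.52. The spoke heads with tissue forms were both weak: Rsph4a, the form of motile cilia, had 0.565 and 0.615, and Rsph6a, the form of sperm, had 1.28 and 1.34. The values of the sperm form exceeded those of the ciliary form in each library. Rsph9 had 1.46 and 1.22, and Rsph10b 0.538 and 0.536, the latter from peaks at different places.

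The central pair genes were open at all 11 listed (68.7% of all protein-coding genes), with a median of 2.07 and 1.94. Cfap54 had the highest value, 3.84 and 4.01, followed by Cfap69 (3.18 and 3.23) and Cfap46 (3.26 and 2.99). The Cfap46 peak had its midpoint at -964 bp from the nearest start in replicate 1, and windows of 500 bp gave 1.68 and 2.01. Spag6 and Spag6l, copies of a central pair gene needed for motility, had 2.17 and 2.00, and 0.688 and 0.698. Spag6l was thus the lower of these copies in each library, with the same reservation on reads from copies. Spag16, which binds Spag6 in the central apparatus, had 2.47 and 1.94. Spag17 had 0.624 and 0.634, the lowest of the 11. The others lay between these: Cfap70 at 2.07 and 2.45, Cfap74 at 1.96 and 1.86, Cfap65 at 1.06 and 1.09 and Cfap221 at 1.06 and 0.917.

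In the nexin link and the structures beside it, 7 of 8 genes were open (87.5%; 68.7% of all protein-coding genes). Drc3 had the second highest mean of the 76 genes, with 17.4 and 21.7, in a peak with its midpoint at -328 bp from its start in replicate 1 that also lay in the promoter window of Tom1l2. Drc1, needed for motility of cilia and sperm, had 0.656 and 0.668. Drc7, known as a sperm tail subunit, had none in replicate 1 and 0.419 in replicate 2, with a lowest FDR of 0.00583, and was not in either of the stricter lists. Cfap61 had 4.68 and 6.01 in a peak shared with Crnkl1. Cfap57 had 4.66 and 4.73 in a peak shared with Ebna1bp2. Cfap43 and Cfap44, the tether of inner dynein heads, had like values of 1.47 and 1.38, and 1.47 and 1.56, and Cfap206 had 1.44 and 0.963.

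Proteins inside the doublets were open at all 13 genes (68.7% of all protein-coding genes), mostly at low values. The 5 tektin genes lay within a narrow range, from 0.715 and 0.615 at Tekt5, the tektin of sperm, to 1.01 and 1.23 at Tekt2. Tekt1 had 0.903 and 1.06, Tekt3 0.823 and 0.781 and Tekt4 0.909 and 0.906, the last in a peak at an annotated start away from the 5′ end, which by itself had none. Cfap20, which seals the inner junction of the doublet and is found in many cell types, had 19.4 and 20.03, the highest mean of all 76 genes, although Drc3 was higher in replicate 2 (mean of Cfap20 19.7 ± 0.45, SD, n = 2; rank 228 among all protein-coding genes). Its peak lay at chr8:95434821-95435080 in replicate 2. Cfap52 had 5.75 and 5.15, from a peak with its midpoint at -790 bp in replicate 1 that is shared with Stx8, and 2.12 and 2.10 in windows of 500 bp. The others of this group were low. Cfap45 had 1.89 and 2.10, Cfap53 1.44 and 1.28 and Cfap126 1.14 and 0.966. The remaining values were Cfap161 at 0.898 and 1.16, Cfap77 at 0.903 and 0.838 and Spag8 at 0.774 and 1.16.

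The remaining 19 genes belong to none of these structures in the lists used. Cfap97 had 11.1 and 9.29 (4.54 and 3.68 at the 5′ end alone), Cfap36 7.37 and 9.06, and the dynein assembly factors Cfap298 and Cfap300 8.77 and 7.95, and 6.87 and 6.61. Cfap99 had 4.78 and 4.37 in a peak shared with Zfyve28. Spag1, another assembly factor, had 2.30 and 2.35 at internal starts and none at the 5′ end. Cfap100 had 0.898 and 0.804 and Cfap97d2 0.414 and 0.423. Cfap73 had no peak, and the nearest lay 7535 bp from its start in both libraries.

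The stem Spag groups genes of unlike function, and several of its genes lie outside the axoneme. Spag7 had 10.2 and 15.1, Spag9, a scaffold of kinase signalling, 8.47 and 5.96, and Spag5, a mitotic spindle protein, 5.48 and 4.88. These 3 genes are not known as parts of the axoneme and were stronger than every other Spag gene. Spag11a and Spag11b, defensin-like genes of the epididymis, had no promoter peak, and their promoters were poor in CpG (0.140 and 0.119). Of the 71 axoneme genes besides these 5, 64 were open.

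Compared by stem, the open counts were 30 of 31 for Cfap, 10 of 15 for Dnah, 2 of 2 for Dnaic, 8 of 8 for Rsph, 5 of 5 for Tekt, 10 of 12 for Spag and 2 of 3 for Drc. Over all protein-coding genes the open share was 68.7%. Stem medians over all their genes, as the mean of the library medians, were 2.00 ± 0.054 (SD, n = 2) for Cfap, 0.993 ± 0.070 for Dnah, 2.43 ± 0.0032 for Rsph, 0.905 ± 0.0019 for Tekt and 2.10 ± 0.19 for Spag. The SD covers the libraries and not the genes of a stem, whose values ranged over more than an order of magnitude in Cfap and Rsph.

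Sperm-only and general ciliary genes were then set side by side. The first list held 10 genes known as forms of the sperm flagellum or of spermatids, and the second 29 genes known to serve motile cilia. Some of the second list serve sperm as well, while Dnah5, Dnah9, Dnah11 and Rsph4a are the airway or ciliary forms named above. Of the sperm-only genes 8 were open (80.0%), with Dnah17 in neither library and Drc7 in replicate 2 alone. Of the general ciliary genes 28 were open (96.6%), all but Dnah5. The share over all protein-coding genes was 68.7%. The medians over all genes of a list were 1.23 and 1.23 for sperm-only genes in the libraries, and 1.47 and 1.38 for general ciliary genes. These medians count a gene without a peak as 0 in the library concerned. Among the open genes alone the order was the opposite, with 1.77 and 1.69 for sperm-only and 1.68 and 1.62 for general ciliary genes. Among open genes without a shared peak the order differed between the libraries, with 1.28 and 1.34 for 7 sperm-only genes and 1.46 and 1.28 for 25 general ciliary genes.

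Among sperm-only genes, Dnah8 led at 3.67 and 3.16, as given above. Spag4, a protein that joins the tail to the spermatid nucleus, had 3.25 and 2.51. Cfap299 had 2.95 and 2.04. Cfap97d1 had 2.25 and 2.75, in a peak shared with Dusp3. Rsph6a had 1.28 and 1.34, and Cfap58, a protein of the sperm midpiece and axoneme, 1.18 and 1.12. Cfap157 had 1.10 and 0.781 at an annotated start away from the 5′ end, which had none, and Tekt5 0.715 and 0.615. The highest general ciliary genes lay above this range: 9 of the 29 had a mean value higher than that of Dnah8, from Rsph1 and Dnaic1 to Cfap298, Cfap300, Cfap52, Rsph3b, Cfap57, Rsph3a and Cfap54. At the low end the lists overlapped, with Rsph4a, Spag17, Drc1 and Spag6l below 0.7 in the general list and Tekt5 near them in the sperm list. The lists had promoter CpG of 0.409 (sperm-only) and 0.533 (general, median), and the part of CpG in these values was not tested. Among genes whose CpG lay between 0.302 and 0.708, the bounds of equal tiers of all genes, 7 of 7 sperm-only genes and 19 of 20 general ciliary genes were open, with medians of 2.25 and 2.04, and of 1.29 and 1.14. Of all protein-coding genes in that tier 85.1% were open, with medians of 1.68 and 1.59. Within that tier the sperm-only medians were higher than the general ciliary ones. Below 0.302 the order was the opposite, with 0 and 0.419 for 3 sperm-only genes and 1.46 and 1.49 for 2 general ciliary genes. Above 0.708 lay 7 general ciliary genes, with medians of 4.66 and 4.73, and no sperm-only gene.

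**Figure D3:**
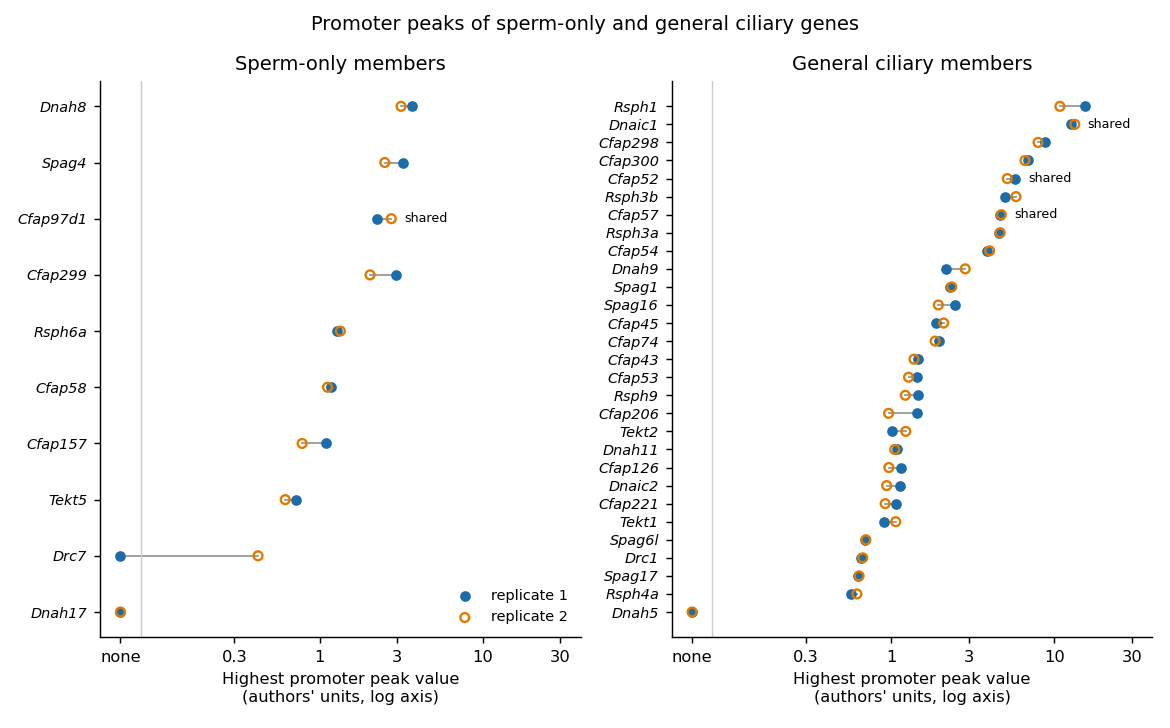
Highest promoter peak value (authors' units, log axis) of the 10 sperm-only genes (left) and the 29 general ciliary genes (right), replicate 1 filled and replicate 2 as a ring; genes left of the grey line had no peak, and "shared" marks a peak that also lies in the promoter window of another gene in both libraries. The lists overlap below a value of about 4, and the general list alone reaches beyond it.

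Promoter CpG content moved with openness among these genes as it did among all. The 8 genes without a peak had a median CpG of 0.227, against 0.529 for the 67 open ones, and over all genes the medians were 0.156 and 0.695. In the tier below 0.302, 8 of 16 axoneme genes were open, against 22.8% of all genes. Between the bounds 42 of 43 were open (85.1% of all genes), with medians of 1.19 and 1.22 against 1.68 and 1.59. Above 0.708 all 17 were open (98.3% of all genes), with medians of 4.99 and 5.96 against 6.80 and 6.14. Most axoneme genes, 43 of 76, therefore had CpG of the middle tier.

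**Figure D4:**
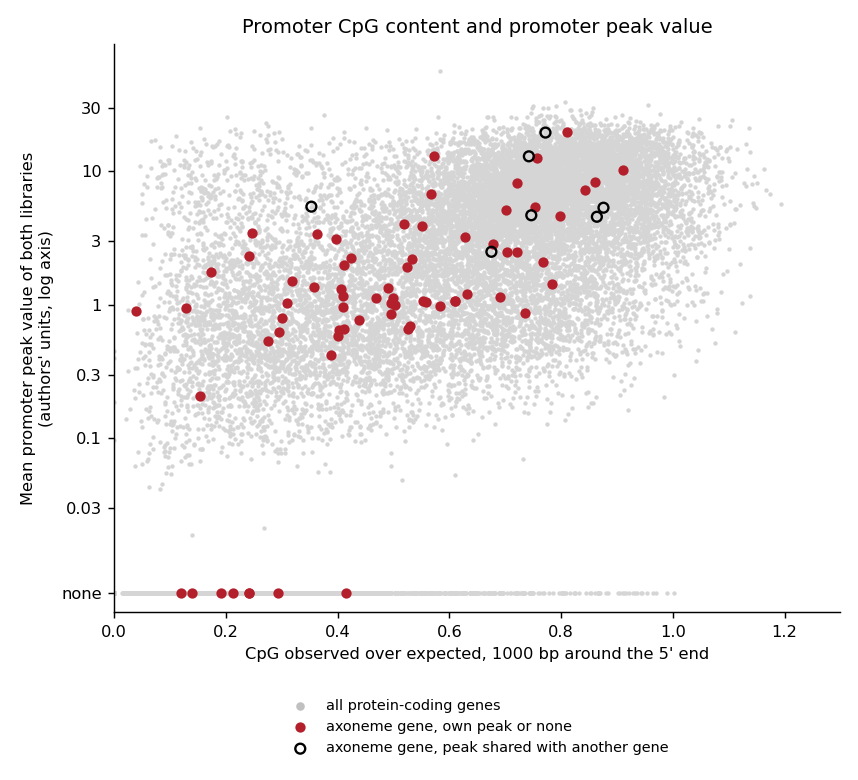
Promoter CpG (observed over expected in 1000 bp around the 5′ end, horizontal axis) against the mean promoter peak value of both libraries (authors' units, log axis), for all protein-coding genes (grey) and axoneme genes (red; black rings mark a peak shared with another gene). The axoneme genes without a peak all lie below a CpG of 0.42, and those above 10 all lie above 0.57.

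A peak can lie in the promoter windows of several genes, and then its value cannot be assigned to one of them. Of the 67 open axoneme genes 7 had their strongest peak in the promoter of another protein-coding gene too, in both libraries (10.4%; 18.4% of all open genes). These were Cfap52, Cfap57, Cfap61, Cfap97d1, Cfap99, Dnaic1 and Drc3. Their median value was 4.78 and 5.15, against 1.45 and 1.31 for the 60 others. Over all open genes the medians were 7.40 and 7.09 with a shared peak and 3.20 and 2.90 without. By the mean of the libraries, Cfap20, Rsph1 and Spag7 were the strongest of those 60, and Spag7 is one of the 5 genes not known as parts of the axoneme.

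The peaks themselves were narrow and close to the annotated starts. Their median width was 200 bp in each library, against 220 bp for the highest promoter peaks of all open genes. Midpoints lay within 100 bp of a start at 47 of the 67 genes in replicate 1 and at 51 in replicate 2, with a median distance of 47 and 41 bp (58 and 61 bp for all open genes). The median peak held 4 footprints in each library (4 and 5 for all open genes). Spag6 had the widest, at 620 and 560 bp with 12 and 11 footprints. At 4 open genes, Cfap157, Dnah8, Spag1 and Tekt4, no peak lay at the 5′ end and the value came from another annotated start.

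Peaks outside all promoter windows were counted within 50 kb of the starts. The median axoneme gene had 5 such distal peaks in replicate 1 and 6 in replicate 2, and the median protein-coding gene 4 in each. Axoneme genes have more annotated starts (median 4 against 3) and so cover more sequence. Counted from the 5′ end alone the medians were 4 and 4, against 3 and 4 for all genes. Dnah8 had 19 in each library, Cfap61 15 and 18, and Cfap126 16 and 16, whereas Rsph4a and Spag4 had none in either. The number differed by 10 or more between the libraries at Dnah2 (13 and 28) and Rsph6a (9 and 19), as it did at 1.19% of all genes. Inside the genes, outside promoter windows, the median axoneme gene held 2 peaks in each library and the median Dnah gene 4 and 5, with median gene lengths of 54.5 and 239 kb. The strongest such peak was that of Rsph1, at chr17:31260561-31260740, with 4.44 and 4.67. That of Dnah8, at chr17:30658201-30658400, had 3.39 and 3.11, close to its promoter value.

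Other genes of the motile axoneme were mostly open too. Of 41 further genes, listed for regulation, dynein assembly, docking, nexin link, central pair, spokes and doublets, 39 were open (95.1%), Nme8 had 0.215 in replicate 1 alone, and Dnajb13, a radial spoke protein, had no peak. Their median value was 2.71 and 2.72. The highest were Ccdc151, of the dynein docking complex, at 17.2 and 20.4, Rfx2, an X-box binding factor needed for spermiogenesis, at 16.2 and 15.4, and Dnaaf5, an assembly factor, at 12.2 and 14.4. Ccdc151 and Dnaaf5 shared their peaks with another gene. Intraflagellar transport and BBSome genes, which build and traffic along nearly all cilia, were open at 22 of 22 with medians of 7.60 and 8.44. Of 14 genes listed for the outer dense fibres, fibrous sheath and other sperm tail parts 9 were open (64.3%), near the 68.7% of all genes, with medians of 0.640 and 0.587. Not all of these are confined to sperm: Odf2, which is also a centriole protein of many cell types, was the strongest at 23.1 and 19.7. The axoneme genes thus had a median between those of the latter lists, and no test of these differences was made. Median promoter CpG ran in the same order, at 0.709 for transport genes, 0.522 for the further axoneme genes, 0.501 for the 76 genes and 0.182 for fibre and sheath genes. An X-box match stood in the highest promoter peak of both libraries at 4 of the 39 open further axoneme genes (10.3%), near the share of the 76 genes. It stood there at 1 of 22 transport genes (4.55%) and at 0 of the 9 open fibre and sheath genes. Fsip1, whose highest peaks lay at different places in the libraries, held a match in only 1 of them. In the fixed stretch around the 5′ end the order was another. A match stood there at 5 of the 41 further axoneme genes (12.2%) and at 1 of 22 transport genes (4.55%). Among the 14 fibre and sheath genes 2 held one (14.3%), against 6.58% of the 76 genes and 0.945% of all protein-coding genes.

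**Figure D5:**
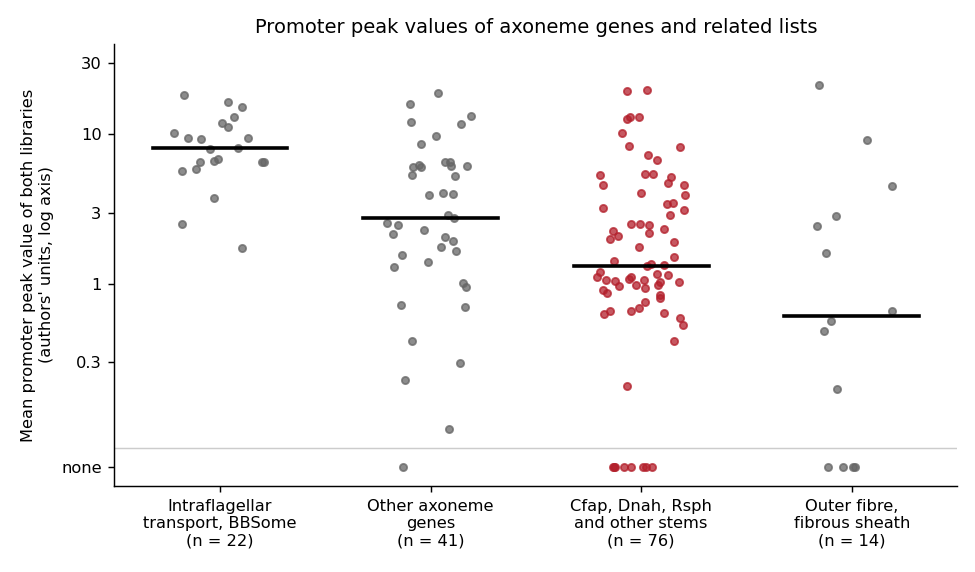
Mean promoter peak value of both libraries (authors' units, log axis) of each gene in 4 lists, with a bar at the median of the gene means (8.06, 2.74, 1.33 and 0.613 from left to right). Genes under the grey line had no promoter peak; the 76 axoneme genes (red) cover nearly the whole range of the other lists.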

How the data were processed

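DNase-seq peaks, footprints and an FDR track of 2 testis libraries were used as deposited, made from each library alone on mm10 per the file descriptions. The peak value is a signal column set by the authors, and neither the meaning of its unit nor the aligner and callers were stated. In each library 100% of values below 1 were whole multiples of 1 step (0.00538 and 0.00377, tolerance 0.05 steps). Deposited footprints all carry a p-value of 0.01, a threshold, so they served by position alone. The FDR track deposited by the authors lists q-values below 0.05. The longer lists held 101172 and 117359 peaks and the shorter 62013 and 69638, and read depth is unknown. The median open axoneme gene had 323 and 470 steps, a counting error of 5.56% and 4.61% if each step is an independent event.

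Protein-coding genes came from GENCODE M21 (named chromosomes, 1 gene per symbol). Peaks were matched to windows with numpy 2.4.6 and to the FDR track with bedtools 2.31.1 (overlap from 1 bp), and sequence was read with pysam 0.24.0. The functions were tested on simulated data. Members and lists were chosen with earlier results of these data known. Any member may be named; the rule required values for both tissue lists, the 3 highest genes of each stem and genes with a peak in 1 library, and allowed 6 X-box sites. The other members' values and the site of Cfap44, the lowest of 7, were added after they were seen. Of the listed symbols Cfap47 and Dnaaf4 were not matched, and Dnai1 and Dnai2 are present as Dnaic1 and Dnaic2. Alternatives were other windows, starts, peak lists and single libraries.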

Additional observations from a re-analysis of the deposited data

How the results depend on the processing

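The open counts of all 76 genes, of both tissue lists and of each stem kept within 1.5 times under every alternative run, which were windows of 500 and 2500 bp, the 5′ end alone, the shorter peak lists, peaks at or above the library's median value, peak midpoints and each library by itself. Most counts were too near their list size to rise that far, and Drc reached the bound, with 3 genes against 2. Over these settings the open share ran from 82.9% to 92.1% for the 76 genes and from 61.4% to 71.7% for all protein-coding genes. With windows of 2500 bp 70 genes were open, with Dnah2, Dnah17 and Drc7 added. The median promoter value of the 76 genes was 1.36, and 1.19 with the 5′ end alone. The other settings moved it by less than the SD of the library medians. For single libraries this was fixed in advance, since each of 2 values lies within the SD of their mean. The limit at the library's median value drops only peaks weaker than the median axoneme gene, so it could not move that median. These settings therefore say little on stability. Each library by itself gave 67 to 68 open genes and medians of 1.28 to 1.44. The median number of distal peaks, 5.5, came to 2.25 within 20 kb, 10 within 100 kb, 3 in the shorter lists and 4 from the 5′ end alone, each by its construction of less sequence, more sequence or fewer peaks. Genes with an X-box match numbered 5, 6 with 500 bases before and 100 after the 5′ end (7.89%; 1.40% of all genes) and 7 in the highest promoter peaks. No paired analysis was possible because the labels give a single group. Depth in reads is unknown, so the calls at genes with weak values are the least certain. Drc7, with a peak in replicate 2 alone, and Cfap97d2 had promoter peaks in the longer lists and none in the shorter ones.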
